A study of Mus musculus with 12 samples.

Results

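Cytosolic ribosomal protein genes were followed through 12 libraries of sorted mouse brain myeloid cells. Genes were taken by symbol (Rpl or Rps followed by a digit, Rplp0 to Rplp2, and Rpsa), leaving out symbols that hold "-ps" and the Rps6k kinases, and a mean of at least 5 CPM (UMIs of a gene per 1000000 UMIs of its library) over the 12 libraries was required. Of the 31053 genes listed, 86 met the symbol rule and 83 were kept, 49 of the large and 34 of the small subunit. Rpl10l, Rpl3l and Rpl39l, copies of large subunit genes, fell under the minimum, with a mean of 1.64 CPM for Rpl39l and 0.0981 CPM for Rpl3l, and Rpl10l had 0 UMIs. The lowest gene kept, Rps19bp1, had a mean of 55.1 CPM. All 83 passed the filter on low counts, so that no gene was lost from the comparisons.

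Each ribosome is built from a small subunit, which reads the message, and a large subunit, which joins amino acids, and each subunit holds a fixed set of proteins, nearly all of them in a single copy. Mammalian ribosomal protein genes are single functional genes scattered over the genome, and many of their messages begin with a cytosine and a run of pyrimidines (the terminal oligopyrimidine tract), through which mTOR signalling and the protein Larp1 set their translation together. Dissociation of tissue at warm temperature is known to switch on immediate early and stress genes in microglia, the resident macrophages of the brain, which makes the behaviour of housekeeping messages in the same cells of interest.

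The cells came from whole brains of male C57BL/6J mice at postnatal day 90, 1 animal per library, and were sorted as live CD45+ and CD11b+ cells. DNC-NONE brains were homogenized mechanically on ice with a Dounce, and DNC-INHIB brains in the same way with inhibitors of transcription (actinomycin D and triptolide) and translation (anisomycin). ENZ-NONE brains were digested with warm enzymes, and ENZ-INHIB brains with the same enzymes and inhibitors, with 3 libraries in each of the 4 preparations. The labels also place 6 libraries in batch 1 and 6 in batch 2. Batch 1 held replicates 1 and 2 of DNC-NONE, 4 of DNC-INHIB, 4 and 5 of ENZ-NONE and 1 of ENZ-INHIB, so that every preparation was in both batches but 4 of the 6 libraries without inhibitors were in batch 1 and 4 of the 6 with inhibitors in batch 2.

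After filtering, 18830 of 28426 barcodes were left, from 855 to 2185 per library, with 1062871 to 3233159 UMIs per library. Libraries shared 2 to 16 barcodes in pairs. In all 5 microglia-like clusters the 10 microglia markers checked, among them Tmem119 and P2ry12, were each detected in at least 10% of cells. ENZ-NONE replicate 6 stood apart, since it held 68.8% of the cells of the microglia-like cluster led by Ccl12, Fos and Dusp1.

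The 83 genes lie on 19 chromosomes, with 14 of them on chromosome 7. They are short, with a median coding length of 453 bases, against 1362 bases for the other 9504 protein-coding genes tested. Introns of 17 of the 83 (20.5%) hold 32 annotated small nucleolar RNA genes, against 1.52% of the other coding genes. Exons of 12 of them overlap a tested gene on the other strand, for example Rpl35 with Arpc5l and Rps2 with Snhg9.

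The bases around the annotated start are shown for 9 genes, because a pyrimidine tract at the start of the message is a known feature of this family. A link between the tract and the batches was not tested. The windows run from 15 bases before to 15 bases from the annotated start on (RefSeq, GRCm38.p6). Capitals mark the longest run of C and T where it has at least 6 bases, and the first of equally long ones. The marked runs of Rps15a, Rps27l and Rps27rt lie wholly before the annotated start. In Rps15a and Rps27rt another run, left in small letters, lies at the annotated start. The first 5 are genes that were higher in batch 2 and hold such a run, and the last 4 are genes that were not called there.
Rps23, chr13:90923107-90923136, + strand: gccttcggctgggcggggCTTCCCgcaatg
Rplp2, chr7:141447636-141447665, + strand: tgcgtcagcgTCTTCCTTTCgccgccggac
Rpl39, chrX:37085208-37085237, - strand: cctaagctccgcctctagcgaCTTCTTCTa
Rps15a, chr7:118116133-118116162, - strand: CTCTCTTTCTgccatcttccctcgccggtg
Rps2, chr17:24720048-24720077, + strand: aggcagtcgagatctcgcgCTTCTTggagc
Rps27l, chr9:66946071-66946100, + strand: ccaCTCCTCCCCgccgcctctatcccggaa
Rps27rt, chr9:114982725-114982754, - strand: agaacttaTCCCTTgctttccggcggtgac
Rps19bp1, chr15:80264292-80264321, - strand: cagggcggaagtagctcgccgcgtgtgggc
Rpl7l1, chr17:46782642-46782671, - strand: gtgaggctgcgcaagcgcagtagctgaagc
A start window was found for 63 of the 83 genes. For 38 of these (60.3%) the window of 1 or more starts held a run of at least 6 consecutive C or T on the coding strand. The run could lie before or after the start, and 32.6% of 26962 other genes held one. The run is a description of these letters only, since annotated starts can lie some bases from the true ones. Rps23 and Rps2, with runs of 6 bases, and Rplp2 and Rps15a, with runs of 10, which are shown because they hold a run, rose in batch 2. Rps27l, with a run of 9, and Rps27rt, with a run of 6, were not called. Since the genes that rose were chosen for holding a run, the list shows nothing of a relation between run and rise.

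The genes took up between 3.59% and 4.96% of all UMIs of a library. In DNC-NONE the share was 3.70%, 4.21% and 4.67% in replicates 1 to 3, and in DNC-INHIB 3.87%, 4.32% and 4.74% in replicates 4 to 6. In ENZ-NONE it was 3.59%, 3.87% and 4.67%, and in ENZ-INHIB 3.73%, 4.49% and 4.96%. The 4 preparations overlapped throughout, with means of 4.19% ± 0.482, 4.31% ± 0.436, 4.04% ± 0.559 and 4.39% ± 0.619 (SD, n = 3 each). In microglia-like cells alone they also overlapped, with means of 3.85% ± 0.534, 4.12% ± 0.419, 3.84% ± 0.434 and 4.24% ± 0.623 in the same order. Each library's own counting error was far smaller, for example an exact 95% interval of 3.57 to 3.62% for ENZ-NONE replicate 4.

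Enzymatic and Dounce libraries differed by less than the spread between libraries, with 4.22% ± 0.562 against 4.25% ± 0.416 (n = 6 each). Libraries with inhibitors averaged 4.35% ± 0.481 and those without 4.12% ± 0.474, a difference of 0.233 percentage points. Within batches the sign of that difference turned, to -0.0428 points in batch 1 and -0.0418 points in batch 2.

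The batches, in contrast, did not overlap. All 6 libraries of batch 1 lay between 3.59% and 4.21%, and all 6 of batch 2 between 4.32% and 4.96%, with means of 3.83% ± 0.212 and 4.64% ± 0.218. In every preparation, each library of batch 2 was above each library of batch 1.

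**Figure D1:**
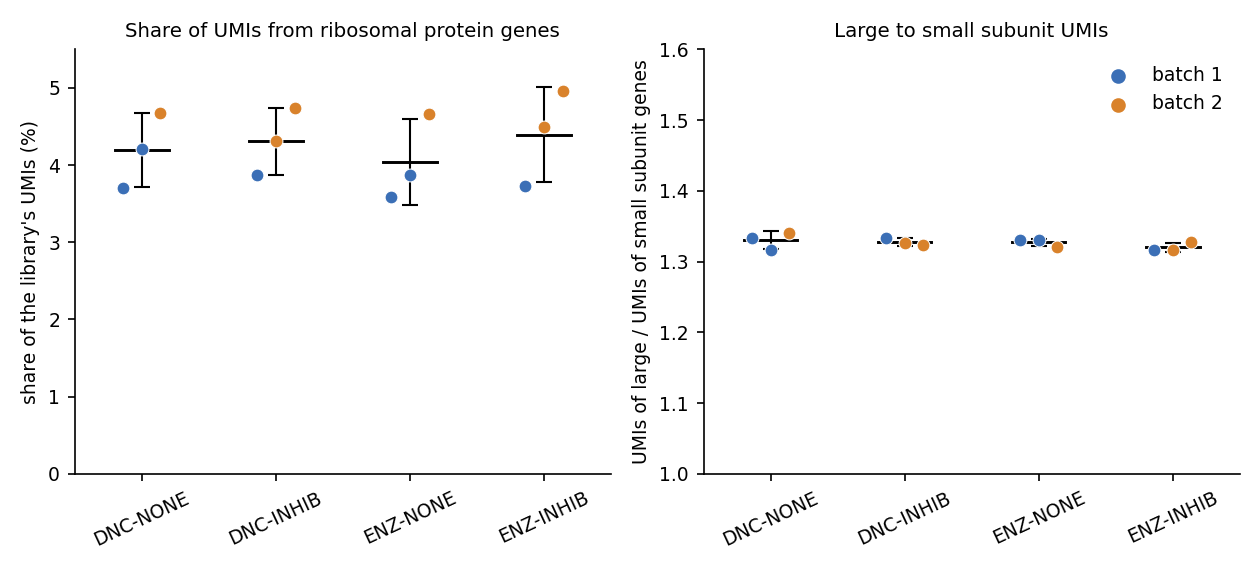
Left, share of UMIs from the 83 ribosomal protein genes in each library (y axis, percent, from 0); right, ratio of UMIs of large subunit genes to UMIs of small subunit genes (y axis from 1.0). Points are libraries coloured by batch, and black lines are the mean and SD of the 3 libraries of each preparation; batch 2 libraries are the higher ones within each preparation on the left, between 4.32% and 4.96%, and the ratio stays between 1.32 and 1.34 on the right.

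Large and small subunit genes kept a near constant proportion. Large subunit genes gave 1.32 to 1.34 UMIs per UMI of small subunit genes in all 12 libraries, with a mean of 1.33 for DNC-NONE (SD 0.0129), 1.33 for DNC-INHIB (SD 0.00544), 1.33 for ENZ-NONE (SD 0.00533) and 1.32 for ENZ-INHIB (SD 0.00600). The ratio did not separate the batches either, at 1.33 ± 0.00833 in batch 1 and 1.33 ± 0.00845 in batch 2. In microglia-like cells alone it was slightly lower after enzymatic digestion, at 1.33 ± 0.00671 in ENZ (1.323 to 1.339) and 1.35 ± 0.00750 in DNC (1.339 to 1.359), so that the 2 sets of 6 libraries met at their edges. This ratio is a score over the chosen genes and was given no test.

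Levels within the family were far from equal. Rps29 was the highest at 1747 ± 210 CPM over the 12 libraries, and Rps27 with 1531, Rpl41 with 1438, Rpl13 with 1338 and Rps19 with 1184 CPM were also among the 6 highest. The lowest were Rps19bp1 with 55.1, Rpl12 with 112, Rps27rt with 117 and Rpl7l1 with 132 CPM. These are UMIs of a 3' assay with no correction for how well each message end is captured, so that the order of genes is one of UMIs, and the reference also lists copies such as Rpl10-ps3 (46.7 CPM) and Rpl27-ps3 (14.1 CPM), with which UMIs of the parent genes may have been shared.

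The 6 genes outside the core set of ribosomal proteins were all among the 11 lowest. Rpl36al, Rpl22l1, Rps27l and Rpl7l1 are close relatives of Rpl36a, Rpl22, Rps27 and Rpl7, Rps27rt is a copy of Rps27 without introns, and Rps19bp1 encodes a protein that binds Rps19 and is not part of the ribosome. Rps27rt and Rps27 share most of their sequence, so the split of UMIs between them is uncertain.

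Over the 12 libraries the coefficient of variation ran from 6.81% to 19.5%. It was lowest for Rpl5, which carries 5S ribosomal RNA into the large subunit, at 6.81%, for Rpl35 at 7.36% and for Rps27l at 7.84%. It was highest for Rps24 at 19.5%, Rps2 at 18.4% and Rpl39 at 18.3%. The steadiest and the most variable genes thus came from both subunits.

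No ribosomal protein gene passed the test in any comparison of preparations. The UMIs of each library were summed and fitted with edgeR's quasi-likelihood test over 9884 genes, and a gene was called at a Benjamini-Hochberg adjusted p under 0.05. In such sums fewer cells of a type and less RNA per cell cannot be told apart. Of the 83 genes 0 were called in the comparison of ENZ-NONE with DNC-NONE, where 0.648% of all genes were. Likewise 0 were called for ENZ-NONE against ENZ-INHIB (0.415% of all genes), ENZ-NONE against DNC-INHIB (0.87%), ENZ-INHIB against DNC-INHIB (0.152%), ENZ-INHIB against DNC-NONE (0.101%) and DNC-NONE against DNC-INHIB (0% of all genes, with 467 at an unadjusted p under 0.05). At such background shares fewer than 1 of 83 genes would be called if the family behaved like the rest, so the count of 0 says little by itself, and the intervals below say more.

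The main effects gave the same count. Of the 83 genes 0 were called for ENZ against DNC over both inhibitor states (1.57% of all genes), 0 for INHIB against NONE over both methods (0.223%) and 0 for the difference between the ENZ effect without and with inhibitors (0.172%). At an unadjusted p under 0.05 there was 1 gene of the 83 for ENZ against DNC (1274 of all 9884 genes), 0 for inhibitors (690 of all) and 0 for the difference between effects (349 of all). In the 6 pairs there were 0 or 1 of the 83, where 467 to 1027 of all genes had such a p. That is fewer than the family's size would give at the share of all genes. These fits hold no batch term, so batch differences were part of the spread of the 83. With batch added, the median SE of the 83 fell from 0.144 to 0.0839 for ENZ-NONE against DNC-NONE. There 4 of the 83 and 992 of all genes then had such a p, and 4 and 1180 for ENZ-INHIB against DNC-NONE. The low count is thus not read as steadiness of the family. DESeq2 also called 0 of the 83 in each of these 9 comparisons. The 6 pairs and the main effects share libraries and are not independent of each other.

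The intervals bound what could have been missed, in fits without batch, whose spread includes batch differences. For ENZ against DNC all 83 fold changes had 95% intervals inside a 1.5-fold change in either direction, and these intervals together ran from -0.37 to 0.40 on the log2 scale. For INHIB against NONE all 83 were also inside 1.5-fold, from -0.30 to 0.46. In the pairs, with 3 libraries against 3, 82 of 83 were inside 1.5-fold for ENZ-NONE against DNC-NONE, 81 for ENZ-NONE against ENZ-INHIB, 80 for ENZ-INHIB against DNC-NONE and all 83 in the remaining pairs. The difference between the effects without and with inhibitors was less precise, with 72 of 83 inside 1.5-fold.

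**Figure D2:**
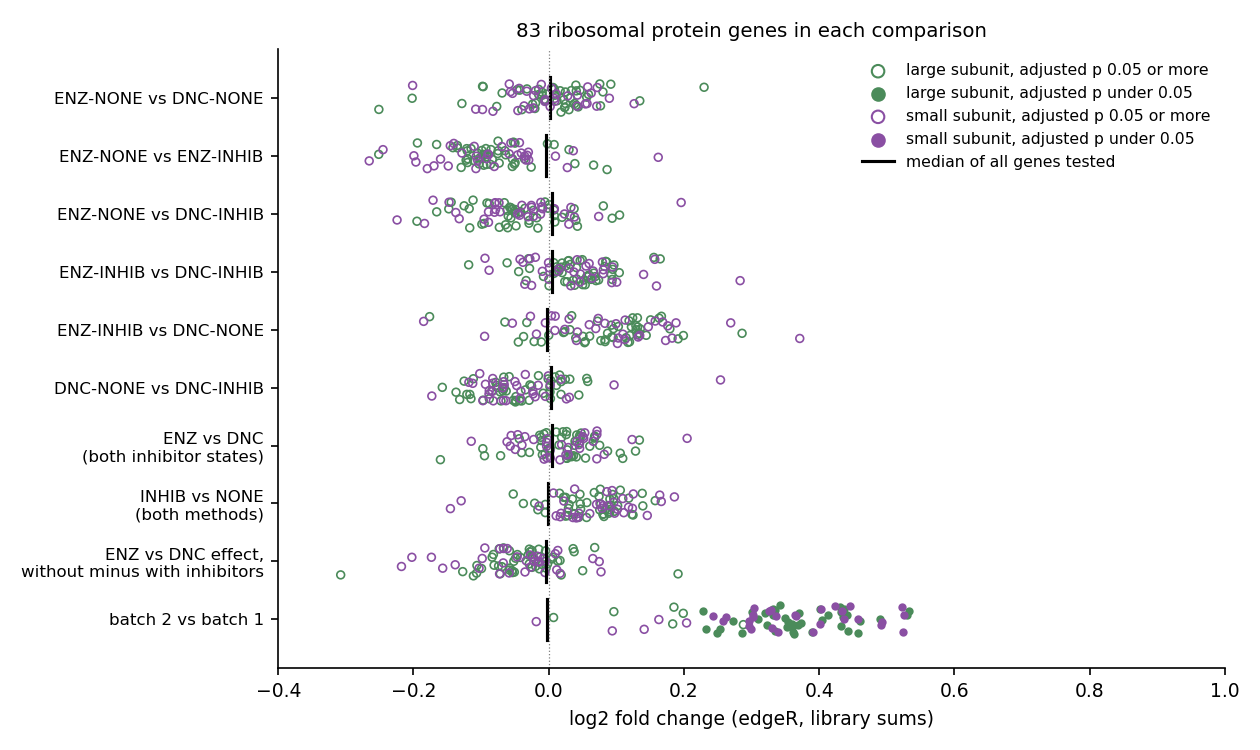
Each point is 1 of the 83 ribosomal protein genes, placed by its log2 fold change (x axis) in each comparison (rows), with open points for an adjusted p of 0.05 or more and filled points for one under 0.05. Black bars give the median of all genes tested; in the 9 comparisons of preparations all points are open, and in the row for batches 72 are filled and lie to the right.

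Since no gene was called, those with the most extreme fold changes are given as values only, from the fit without batch. Adding batch moved the median of the 83 from -0.05 to 0.07 for DNC-NONE against DNC-INHIB and from -0.09 to 0.03 for ENZ-NONE against ENZ-INHIB. It moved from -0.05 to 0.07 for ENZ-NONE against DNC-INHIB and from 0.10 to -0.04 for ENZ-INHIB against DNC-NONE. For ENZ-NONE against DNC-NONE it was 0.006 and -0.004, and for ENZ-INHIB against DNC-INHIB 0.04 and 0.03. The extremes for ENZ-NONE against DNC-NONE were Rpl7l1 at 0.23, Rpl36a at 0.13 and Rps27rt at 0.13, and Rpl12 at -0.25, Rpl4 at -0.20 and Rps7 at -0.20. Their adjusted p from edgeR was at least 0.543. For ENZ-INHIB against DNC-INHIB they were Rps27rt at 0.28, Rpl30 at 0.17 and Rps19bp1 at 0.16, and Rpl4 at -0.12, Rps13 at -0.09 and Rps27l at -0.09. Rpl4, a large subunit protein that lines the exit tunnel, was thus below 0 both without and with inhibitors.

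For ENZ-NONE against ENZ-INHIB the extremes were Rps27l at 0.16, Rpl5 at 0.09 and Rpl7l1 at 0.07, and Rps24 at -0.27, Rpl12 at -0.25 and Rps27rt at -0.25. For DNC-NONE against DNC-INHIB they were Rps19bp1 at 0.25, Rps27l at 0.10 and Rpl4 at 0.06, and Rps20 at -0.17, Rpl32 at -0.16 and Rpl22 at -0.14. Rps20 and Rps24 are small subunit proteins of the core set, and Rps24 is also the most variable gene of the family over the libraries.

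Across method and inhibitor together, ENZ-NONE against DNC-INHIB had Rps19bp1 at 0.20, Rpl7l1 at 0.10 and Rpl5 at 0.09, and Rps7 at -0.22, Rpl12 at -0.19 and Rps20 at -0.18. ENZ-INHIB against DNC-NONE had Rps27rt at 0.37, Rpl30 at 0.29 and Rps21 at 0.27, and Rps27l at -0.18, Rpl4 at -0.18 and Rps19bp1 at -0.09. The 0.37 of Rps27rt (SE 0.13) was the widest of all and had the smallest adjusted p of any pair, 0.265 by edgeR's quasi-likelihood test.

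Rps27rt had 104, 94.1 and 118 CPM in DNC-NONE replicates 1 to 3 and 107, 108 and 122 CPM in DNC-INHIB replicates 4 to 6. It had 120, 113 and 105 CPM in ENZ-NONE replicates 4 to 6 and 122, 123 and 163 CPM in ENZ-INHIB replicates 1 to 3. The highest value was that of ENZ-INHIB replicate 3, and the preparations overlapped apart from ENZ-INHIB, whose 3 libraries were the highest of all 12.

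For the main effect of ENZ the extremes were Rps27rt at 0.20, Rpl7l1 at 0.13 and Rpl30 at 0.13, and Rpl4 at -0.16, Rps7 at -0.11 and Rpl12 at -0.10, with adjusted p from edgeR of at least 0.330. For INHIB against NONE they were Rps20 at 0.19, Rps27rt at 0.17 and Rps24 at 0.16, and Rps19bp1 at -0.15, Rps27l at -0.13 and Rpl5 at -0.05. Inhibitors are unevenly spread over the batches, and with batch as a term Rps20 was at 0.07, Rps27rt at 0.12 and Rps24 at -0.00726, and Rps19bp1 at -0.14, Rps27l at -0.18 and Rpl5 at -0.12. For the difference between effects they were Rpl7l1 at 0.19, Rpsa at 0.08 and Rps13 at 0.07, and Rpl12 at -0.31, Rps19bp1 at -0.22 and Rps24 at -0.20.

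As a family the genes leaned only slightly in size, though mostly in 1 direction for inhibitors. The median log2 fold change of the 83 was 0.03 for ENZ against DNC and 0.08 for INHIB against NONE, beside 0.00 for all genes tested in both. Above 0 were 54 of the 83 for ENZ against DNC (51.2% of all genes) and 74 for INHIB against NONE (49.6%). With batch as a term the median for INHIB against NONE turned to -0.05, with 73 of 83 below 0. That for ENZ against DNC was then 0.02. In microglia-like cells, without batch, the median was 0.11 for INHIB against NONE (80 of 83 above 0) and 0.05 for ENZ against DNC (67 of 83). For DNC-NONE against DNC-INHIB it was -0.12 there (80 of 83 below 0), beside -0.05 over all kept cells. For ENZ-NONE against DNC-NONE it was 0.06 beside 0.006, and for ENZ-INHIB against DNC-NONE 0.15 beside 0.10. The medians over all kept cells also rested on single libraries. The median for ENZ against DNC ran from -0.06 without ENZ-NONE replicate 6 to 0.08 without ENZ-INHIB replicate 1, and was also below 0 without DNC-NONE replicate 1, DNC-INHIB replicate 4 or ENZ-INHIB replicate 3. The median for INHIB against NONE ran from 0.02 without ENZ-INHIB replicate 3 to 0.14 without ENZ-NONE replicate 6. Medians of large and small subunit genes were 0.03 and 0.02 for ENZ against DNC, and 0.08 and 0.08 for INHIB against NONE. In the difference between effects the medians were -0.03 for both subunits.

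Other genes of protein synthesis were not called between preparations either, at the same low background shares. Of 17 translation factors and related genes with terminal pyrimidine messages (such as Eef1a1, which brings transfer RNAs to the ribosome), 30 genes of ribosome assembly (such as Ncl and Fbl of the nucleolus), 14 regulators (such as Mtor, Larp1 and Myc) and 77 mitochondrial ribosomal proteins, 0 were called in each of the 9 comparisons. Ribosome assembly genes had medians of 0.08 for ENZ-NONE against DNC-NONE, 0.08 for ENZ-NONE against ENZ-INHIB and -0.07 for INHIB against NONE, and the medians of the other 3 lists lay between -0.07 and 0.03 in the 9 comparisons. Fau, which encodes a ribosomal protein fused to a ubiquitin-like protein and is missed by the symbol rule, was not called in these comparisons either. For ENZ against DNC its log2 fold change was 0.06 (SE 0.10).

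Between the batches the family moved as a whole. In a fit with preparation and batch, a comparison chosen after the data were seen, 72 of the 83 genes were called and all 72 were higher in batch 2, against 2.87% of all genes called in either direction and 2.06% called in that direction (204 of 9884). Called were 43 of 49 large and 29 of 34 small subunit genes. The median log2 fold change of the 83 was 0.34, beside 0.00 for all genes tested, and 82 of 83 lay above 0. No gene passed 1.5-fold, and the largest change was 0.53. For 54 of the 83 genes all 6 libraries of batch 2 were above all 6 of batch 1, as was true of 1.19% of all genes.

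Rpl10 (large subunit, ENSMUSG00000008682, chrX:74270812-74273135, + strand), whose protein joins the large subunit late in its assembly, changed with the smallest p. In batch 1 the DNC-NONE libraries had 487 and 497 CPM, the DNC-INHIB library 492, the ENZ-NONE libraries 477 and 527 and the ENZ-INHIB library 486. In batch 2 the DNC-NONE library had 728 CPM, the DNC-INHIB libraries 656 and 679, the ENZ-NONE library 699 and the ENZ-INHIB libraries 669 and 693. The batches were thus separated by a gap wider than the spread within either, and the log2 fold change was 0.53 (SE 0.05, adjusted p = 1.8e-05 by edgeR).

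Rps23 (small subunit, chr13:90922958-90924950, + strand), a protein of the decoding centre, had 613 ± 44.6 CPM in batch 1 and 850 ± 56.1 in batch 2 (SD, n = 6 each), a log2 fold change of 0.52 (SE 0.06). Its lowest library of batch 2, DNC-INHIB replicate 5 with 776 CPM, was above its highest of batch 1, DNC-NONE replicate 2 with 679 CPM. Next by p came Rplp2 at 0.43, Rpl7 at 0.46, Rpl17 at 0.46 and Rpl39 at 0.53, with edgeR adjusted p of 0.000363 for Rplp2 and 0.000444 for the other 3. Each of these genes was higher in all 6 libraries of batch 2 than in any of batch 1.

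Of 13 genes listed for special roles 11 were called, all but Rpl5 and Rps19. The stalk proteins Rplp0, Rplp1 and Rplp2, which recruit elongation factors, changed by 0.36, 0.37 and 0.43. Rpsa, also known as the laminin receptor, changed by 0.44, and Rps6, the target of S6 kinase, by 0.40. Rps3, Rps27a (fused to ubiquitin), Rpl13a and Rpl38 changed by 0.34, 0.40, 0.35 and 0.33.

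Rpl11 and Rpl5 bind 5S ribosomal RNA together and, outside the ribosome, Mdm2, yet their values differed. Rpl11 rose by 0.43 (SE 0.06), from 375 ± 27.7 to 487 ± 24.6 CPM, and was called. Rpl5 went from 197 ± 14.2 to 214 ± 6.30 CPM, 0.20 (SE 0.06), with an adjusted p of 0.100 by edgeR. The difference between these genes was not tested.

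Of the abundant genes, Rps29 rose by 0.33, Rps27 by 0.30 and Rpl13 by 0.32. Rpl41 (0.19, adjusted p = 0.120 by edgeR) and Rps19 (0.09, adjusted p = 0.583) were not called. Rps19, which is mutated in Diamond-Blackfan anaemia, had 1072 to 1388 CPM in batch 1 and 1132 to 1295 CPM in batch 2, so that the batches overlapped almost fully. Rpl35 behaved likewise, with 1151 ± 83.9 CPM in batch 1 and 1183 ± 92.7 in batch 2.

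Of the 6 non-core genes, Rpl36al (0.33) and Rpl22l1 (0.25) were called, the latter with an adjusted p of 0.0438 by edgeR and no longer when any of 11 of the 12 libraries was left out. Rps27l (0.16), Rps27rt (0.14), Rpl7l1 (0.01) and Rps19bp1 (-0.02) were not called. The 2 genes nearest to 0, Rpl7l1 and Rps19bp1, were thus not core ribosomal proteins. The remaining uncalled genes were Rpl7a (0.29), Rps28 (0.20) and Rpl3 (0.18), chosen here after their values were seen. Among the 4 lowest genes Rpl12 was called, at 0.40, but not without ENZ-INHIB replicate 1 (0.39). Rpl36al lost its call without that library (0.35), without DNC-INHIB replicate 6 (0.33) and without ENZ-NONE replicate 6 (0.24).

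**Figure D3:**
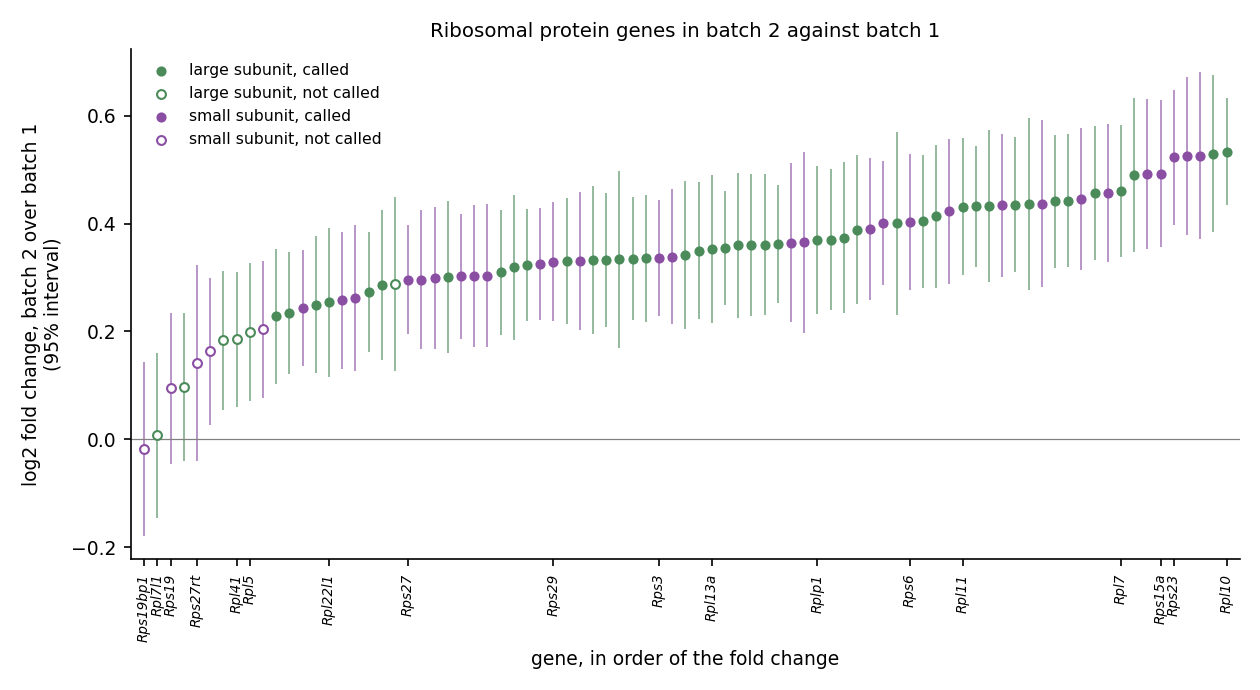
Log2 fold change of each ribosomal protein gene in batch 2 over batch 1 (y axis) with its 95% interval from edgeR, in order of size (x axis), with symbols for some of the genes. Filled points are the 72 genes with an adjusted p under 0.05 and open points the other 11; Rps19bp1 and Rpl7l1 sit at 0 at the left end, and large and small subunit genes are mixed along the order.

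The rise was not limited to genes that the symbol rule takes. Fau was called at 0.38 (714 ± 38.5 to 900 ± 51.7 CPM). Of the 17 translation factors and related genes 6 were called, all higher in batch 2, with Eef1a1 at 0.51, Btf3 at 0.46 and Naca at 0.27 by smallest p. Of 30 genes of ribosome assembly 0 and of 14 regulators 0 were called, and of 77 mitochondrial ribosomal proteins 1, Mrpl24 at 0.31. Mrpl24 was not called without DNC-NONE replicate 3 (0.27), ENZ-NONE replicate 6 (0.31) or ENZ-INHIB replicate 1 (0.33). The medians of these 4 lists were 0.23, 0.07, 0.02 and 0.09, beside 0.34 for the 83 genes.

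Outside the family, the genes whose CPM followed the summed CPM of the 83 most closely over the 12 libraries were Eef1a1 (Spearman rho 0.965), Uqcrh (0.944), Tmsb4x (0.930), and Brk1 and Cotl1 (0.923 each). Tbca also had 0.923. Each of the 83 genes itself had a median rho of 0.909 with the sum, from -0.385 upwards, and the other 9801 genes a median of -0.0699. All these values share the same library totals and the split into batches.

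Several library properties differed between the batches in their means, with ranges that overlapped, and their part in the result was not tested. Cells had a median of 1153 to 1319 UMIs in batch 1 libraries and 1200 to 1572 in batch 2. Malat1, a nuclear RNA, gave 5.63 to 6.45% of UMIs in batch 1 and 5.10 to 5.98% in batch 2, and mitochondrial genes 0.988 to 1.24% and 0.973 to 1.09%. Border macrophage-like, monocyte-like and unnamed cells, whose ribosomal protein share was high, made up 1.70 to 6.67% of cells in batch 1 and 1.85 to 3.55% in batch 2. By preparation their mean was 4.57% ± 1.89 in DNC-NONE, 2.23% ± 0.325 in DNC-INHIB, 2.32% ± 1.06 in ENZ-NONE and 2.10% ± 0.349 in ENZ-INHIB (SD, n = 3 each).

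The share was also taken in narrower sets of cells, as a description and not as a test of depth or cell mix. In cells of 1000 to under 1200 UMIs the share was 3.36 to 3.75% in batch 1 and 4.02 to 4.53% in batch 2. In microglia-like cells alone it was 3.37 to 3.75% and 4.11 to 4.80%, and 74 of the 83 genes were called there. Single libraries were left out only in fits over all kept cells, where 72 were called with all libraries. Without ENZ-NONE replicate 6 that count was 62, and over all single libraries left out it ran from 53 (without ENZ-INHIB replicate 1) to 73.

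By class of cells the family varied far more than by preparation. Classes were clustered without the ribosomal protein genes, and their values are a description, with no test. Microglia-like cells (17955 cells) had a share of 4.01% ± 0.470 over 12 libraries, and border macrophage-like cells (311 cells, led by Pf4, Ms4a7 and class II antigen genes) 8.69% ± 1.397 over the 9 libraries with at least 20 of them. The latter ran from 6.92 to 11.7% and were higher than the microglia-like cells of the same library in 9 of 9 libraries, by 1.77 to 2.44-fold.

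Monocyte-like cells (122 cells, led by S100a8 and Chil3) had a pooled share of 9.55%, and in the single library with at least 20 of them 9.33%. The unnamed cluster led by Cd209a (73 cells) had a pooled share of 14.3%, the highest of all, although with 2 to 12 cells per library. Interferon-responsive-like cells (338 cells, led by Ifit3) had 4.51% ± 0.566 over 10 libraries and were above the microglia-like cells in 10 of 10, by 1.10-fold on average. Proliferating-like cells (30 cells, led by Top2a) had 3.74%, close to microglia-like cells.

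**Figure D4:**
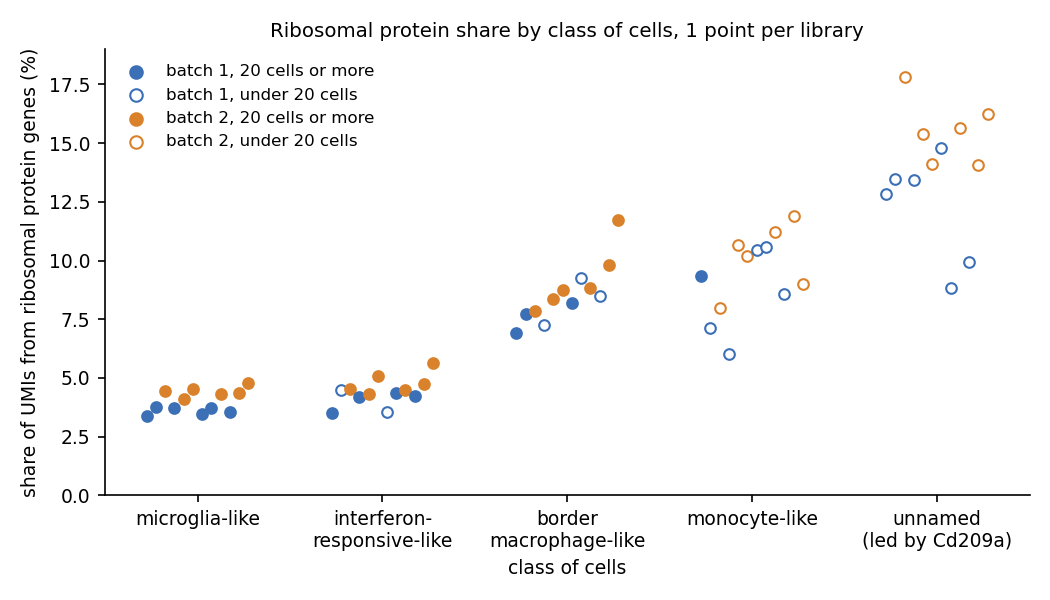
Share of UMIs from the 83 ribosomal protein genes (y axis, percent, from 0) in each class of cells (x axis), with 1 point per library coloured by batch and open where the library held fewer than 20 cells of the class. Border macrophage-like cells lie between 6.92% and 11.7%, all above the microglia-like cells, which lie between 3.37% and 4.80%.

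Depth differed between classes, with a median of 1333 UMIs in microglia-like, 1555 in border macrophage-like, 1935 in monocyte-like and 2479 in unnamed cells. In cells of 1200 to under 2000 UMIs only, the shares were 4.09%, 8.57%, 9.76% and 11.7% in that order. They were pooled over 11449, 171, 54 and 19 cells, so those of the monocyte-like and unnamed cells rest on few cells. Scrublet, a doublet caller, placed 1 of the 311 border macrophage-like, 4 of the 122 monocyte-like (3.28%) and 0 of the 73 unnamed cells above the 98th percentile of their library, beside 1.32% of microglia-like cells.

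Within the microglia-like class the clusters were graded. The cluster led by Lpl and Cst7 (513 cells) had 5.17% ± 0.649 over 12 libraries and was above the largest cluster, with 3.84% ± 0.459, in 12 of 12. Its cells were also deeper, with a median of 1589 UMIs beside 1350.5, and the part of depth was not tested. The cluster led by Ccl12, Fos and Dusp1 had at least 20 cells in 3 libraries and a share of 3.92% ± 0.498 there. In ENZ-NONE replicate 6 this cluster of 649 cells had 4.43%, and the other clusters of more than 300 cells in the same library 4.03% to 4.47%. Its share thus lay within the range of the other microglia-like cells of that library.

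The class difference ran through nearly the whole family. Of the 83 genes 81 had a higher pooled CPM in border macrophage-like than in microglia-like cells, as did 29.0% of all genes tested. In 9 of 9 libraries 74 of the 83 did so, and no share over all genes is given for that count. The median log2 ratio was 1.01, beside -0.37 for all genes. In monocyte-like cells 82 of 83 were higher (32.3% of all genes), with a median of 1.21, and in the unnamed cluster 81 of 83 (36.8%), with a median of 1.76. The genes tested had passed the filter on low counts in library sums made mostly of microglia-like cells. How far this lowers the shares and the median over all genes was not tested.

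Medians were 1.05 for small and 0.93 for large subunit genes. Among the genes of higher ratio, Rps19 went from 1084 CPM in microglia-like to 3141 CPM in border macrophage-like cells (log2 ratio 1.53), Rps28 from 776 to 2223 (1.52) and Rps18 from 711 to 1987 CPM (1.48). Rps19, which was not called between batches, thus had 1 of the 4 highest ratios between these classes.

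At the other end, Rpl7l1 had 132 CPM in microglia-like and 106 CPM in border macrophage-like cells (-0.33), and Rps19bp1 54.9 and 53.8 CPM (-0.03). Among core genes the smallest ratios were those of Rpl7a (0.49), Rpl21 (0.58) and Rpl13a (0.61). The acidic stalk protein gene Rplp1 had 628 CPM in microglia-like, 975.3 in border macrophage-like and 654 CPM in monocyte-like cells, so that in monocyte-like cells it was close to its microglia-like level (log2 ratio 0.06).

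**Figure D5:**
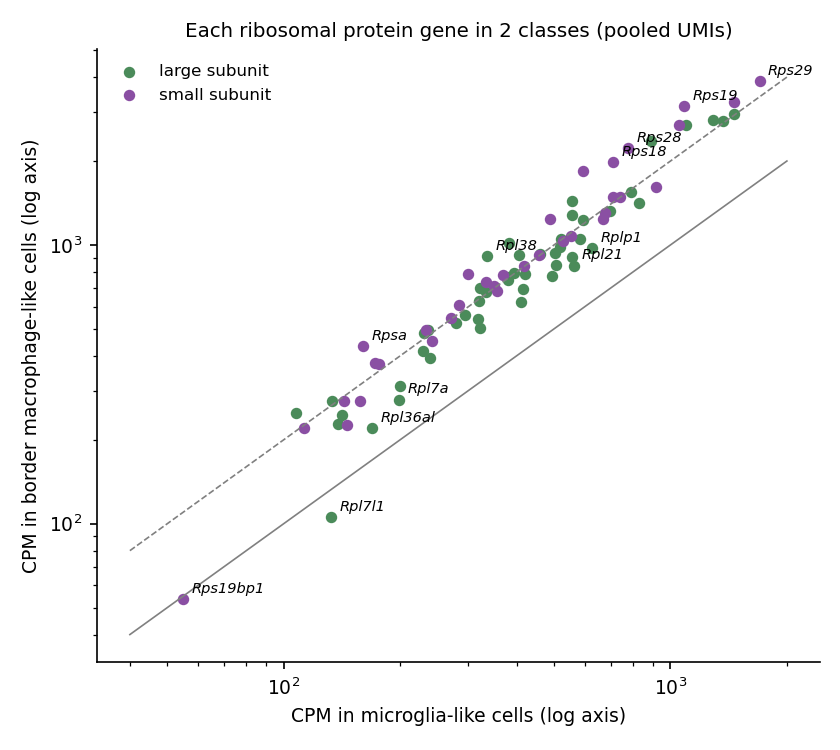
CPM of each ribosomal protein gene in microglia-like cells (x axis, log scale) and in border macrophage-like cells (y axis, log scale), from UMIs pooled over the 12 libraries. The solid line marks equal levels and the dashed line a 2-fold higher level; Rpl7l1 and Rps19bp1 lie on or under the solid line, and Rps19 and Rps28 above the dashed one.

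The proportion of the subunits also differed by class. Large subunit genes gave 1.34 UMIs per small subunit UMI in pooled microglia-like cells and 1.18 in border macrophage-like cells. Over libraries with at least 20 cells the ranges were 1.323 to 1.359 and 1.135 to 1.197 and did not overlap. Pooled monocyte-like cells had 1.18, the unnamed cluster 1.17, interferon-responsive-like cells 1.32 and proliferating-like cells 1.43. The single library with at least 20 monocyte-like cells had 1.232. Interferon-responsive-like cells ran from 1.185 to 1.369 over 10 such libraries, which reached into the border macrophage-like range. No library held 20 cells of the unnamed cluster or of the proliferating-like class, so no spread is given for them.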

How the data were processed

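Per the labels, the authors made 10x 3' version 2 libraries and counted them with Cell Ranger 3.0.0 on mm10 (GRCm38), and the deposited values are UMI counts per gene and cell, with no normalization. Barcodes with at least 500 genes, 1000 UMIs and at most 10% mitochondrial UMIs were kept (66.2%). Their counts were summed per library (1062871 to 3233159 UMIs) and tested with edgeR 4.0.16 (TMM factors, filterByExpr, quasi-likelihood test, Benjamini-Hochberg over 9884 genes) in a fit of the 4 preparations. A fit that adds batch gave the comparison of batches, which was chosen after the data were seen. The test was run on simulated data first. Alternatives were DESeq2, other filters, cells and factors, a batch term, a replicate block and each library left out. Cells were clustered (scanpy, Leiden resolution 1, 20 neighbours) without the ribosomal protein, mitochondrial and stress genes, and classes were named "-like" from marker lists. No doublets were removed in the reported values. Intervals of shares cover counting error only. Samples were grouped by title. Genes named were the 6 highest and 4 lowest, non-core genes, a fixed list of 13 with special roles, the 6 called genes of smallest p or, where fewer than 3 were called, the 3 largest changes in each direction, the 3 largest and smallest coefficients of variation, up to 3 called genes of other lists, and 5 most alike. Some genes that this rule takes are not reported here. The genes and lists were chosen with earlier results of these data known. Positions are from GENCODE vM21 and RefSeq (GRCm38). Replicates of a group differed beyond sampling noise (chi-square per degree of freedom 1.57 to 6.28).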

Additional observations from a re-analysis of the deposited data

How the results depend on the processing

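The count of 0 ribosomal protein genes called held in all 9 comparisons of preparations under DESeq2, no filter on low counts, TMM factors without the family, a batch term, microglia-like cells only, all deposited barcodes, Scrublet removal, thinned sums and each library left out. Fits with the replicate block, where a fit could be had (ENZ-NONE against DNC-INHIB, ENZ-INHIB against DNC-NONE and both main effects), also called 0 of the family. Over all genes the block moved the calls from 86 to 117, 10 to 72, 155 to 230 and 22 to 46 in these 4 fits, and it was not fitted for the other comparisons. Replicate numbers are shared by DNC-NONE and ENZ-INHIB (1 to 3) and by DNC-INHIB and ENZ-NONE (4 to 6). Same-numbered libraries deviated from their group means with correlations of -0.0795 to 0.157. Such low values do not settle whether these libraries shared any processing, and those of numbers 1, 3, 4 and 6 also shared a batch. For batch 2 against batch 1 the count of 72 ran from 64 (thinned sums) to 77 (all deposited barcodes), and from 53 to 73 with single libraries left out. Rpl22l1 and Mrpl24 were not called with thinned sums, and Rpl5 and Rpl41 were called with all deposited barcodes. The share of UMIs from the family changed by 0.813 points between batches, from 0.749 to 0.888 points without single libraries. The ratio of large to small subunit UMIs, ENZ minus DNC, moved by more than its spread in microglia-like cells only, from -0.00578 to -0.0167. The cause was not tested.

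Fold changes of uncalled genes turned sign as follows. With thinned sums Rps19bp1 became -0.24 in ENZ-INHIB against DNC-INHIB, 0.19 in the difference between effects and 0.0671 between batches, and Rps27l -0.0194 in DNC-NONE against DNC-INHIB. With all deposited barcodes Rps19bp1 became 0.0195 in ENZ-INHIB against DNC-NONE and 0.0187 between batches, and Rpl4 -0.0191 in DNC-NONE against DNC-INHIB. In the latter comparison Rps27l became -0.000363 in microglia-like cells and Rpl22 0.0189 with a batch term, which also turned Rps24 to -0.00726 for INHIB against NONE. Without single libraries the range was -0.0169 to 0.135 for Rpl4 in DNC-NONE against DNC-INHIB, -0.21 to 0.0343 for Rps13 in ENZ-INHIB against DNC-INHIB and -0.39 to 0.00138 for Rps7 in ENZ-NONE against DNC-NONE. In the difference between effects it was -0.171 to 0.219 for Rps13 and -0.138 to 0.203 for Rpsa, and between batches -0.0358 to 0.0401 for Rpl7l1 and -0.0861 to 0.0152 for Rps19bp1.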

Other observations

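Barcodes left out by the filter, 350 to 1658 per library with a median of 459 to 854 UMIs, had a ribosomal protein share of 2.70 to 4.04%. It was 3.58% ± 0.369 in the 6 Dounce libraries and 2.96% ± 0.215 in the 6 enzymatic ones, and the 2 sets overlapped, with 3.13 to 4.04% against 2.70 to 3.30%. In kept cells the pooled share was higher in deeper cells, from 3.85% in cells of 1000 to under 1200 UMIs to 4.45% in those of 1500 to under 2000. In microglia-like cells the median over cells was 3.62% and 4.095% in these depth ranges, 4.39% at 2000 to under 3000 UMIs and 4.085% at 3000 UMIs and more.

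Symbols with "-ps" that the rule left out numbered 9, of which 7 had UMIs in kept cells. The highest, Rpl10-ps3, had 1244 UMIs in all 12 libraries together (46.7 CPM), beside 591 CPM for Rpl10. Rpl27-ps3 had 392 UMIs and Rpl9-ps6 373.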
